A study of Mus musculus with 21 samples.

Results

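Cells heated for 15 min at 42 °C were compared with untreated cells, as 3 arrays against 3 chosen by their titles and batch. These are 6 of the 21 arrays of the study, and all 6 belong to batch B. The cells were Ba/F3, an established mouse line that grows only with interleukin 3 and is usually described as pro-B. The labels name no other treatment, transgene or allele for either group, and the heated arrays are titled as a control, since the study set heat beside actuation of droplets on a digital microfluidic device. Batch B also holds 3 arrays heated for 15 min at 47 °C and 3 at 52 °C. These arrays share the normalization, the detection filter and the estimate of spread with the 6, and their values are otherwise given only beside those at 42 °C. The labels give neither the time between heating and lysis nor whether the replicates were separate cultures, so the p-values here cover only the spread among these arrays, which may be technical. Differences in RNA per cell or in the number of living cells cannot be told apart from changes in transcript level in such bulk samples.

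Heat unfolds proteins, and unfolded proteins draw chaperones away from heat shock factor 1 (HSF1). The freed factor forms trimers, binds repeats of the element nGAAn in promoters and induces chaperones of the HSP70, HSP40 and HSP110 families within minutes. Immediate early genes encode short-lived transcription factors and signalling phosphatases whose transcripts turn over fast, so that they also follow a short treatment.

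Each array read 45281 probes, of which 12841 to 13098 were detected per untreated array and 12108 to 13121 per 42 °C array at the deposited detection p below 0.01. The array of 42 °C replicate 2 was the dimmest of the 6, with a 95th percentile of intensity of 997.1 against 1243.3 to 1563.7 on the others. Correlations of log2 levels ran from 0.986 to 0.995 within the untreated group and from 0.989 to 0.994 within the 42 °C group. The pro-B label was not borne out by its markers: of 16 listed, only Cd79b and Ptprc were detected on all 12 arrays of batch B, Vpreb1 was detected on 2, and Pax5, Ebf1, Igll1, Rag1, Rag2 and Il7r on 0. Markers of myeloid progenitors (11 of 14 tested, among them Mpo, Gata2 and Il3ra) and of mast cells and basophils (8 of 12, among them Cpa3 and Fcer1a) were present, with summed linear levels of 19667 to 22408 and 13905 to 15583 in untreated cells and 18666 to 19826 and 15910 to 16464 at 42 °C. Kit and Elane of the first and Fcer1g and Tpsb2 of the second list were detected on 0 arrays. None of the 11 fibroblast and epithelial markers passed the filter.

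Promoters of a few genes are shown because the chaperones that rose most differ in whether they hold the searched form of the element close to the start. The windows run from 220 bases before to 30 bases after a RefSeq transcript start in build GRCm38.p6, 5′ to 3′ on the gene's strand, and the capitals mark matches to GAANNTTC (N is any base) or to its longer forms, in which a further TTC ends 2 bases before it or a further GAA begins 2 bases after it. Both strands were searched, and each stretch can match in more than 1 form. Hspa1a, which encodes inducible HSP70, lies on the minus strand (chr17:34972127-34972376) and holds 1 match starting at position -104. Dnajb1, which encodes an HSP40 that hands clients to HSP70 (chr8:83607955-83608204, plus strand), holds none in this window. Hsph1, the HSP110 nucleotide exchange factor of HSP70, has 2 annotated starts, and the window of the second (chr5:149636286-149636535, minus strand) holds the longer form at position 16. Jun, whose protein dimerizes with Fos proteins as AP-1 (chr4:95052193-95052442, minus strand), holds 1 match at -128. Hspe1, the mitochondrial HSP10 (chr1:55087928-55088177, plus strand), holds both longer forms, at -89 and -84, and is shown because its level did not pass the test.
Hspa1a: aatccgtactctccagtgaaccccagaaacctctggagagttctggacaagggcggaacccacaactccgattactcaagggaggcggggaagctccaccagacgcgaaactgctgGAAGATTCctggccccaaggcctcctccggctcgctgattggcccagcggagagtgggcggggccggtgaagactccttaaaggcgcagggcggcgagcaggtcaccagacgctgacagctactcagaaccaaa
Dnajb1: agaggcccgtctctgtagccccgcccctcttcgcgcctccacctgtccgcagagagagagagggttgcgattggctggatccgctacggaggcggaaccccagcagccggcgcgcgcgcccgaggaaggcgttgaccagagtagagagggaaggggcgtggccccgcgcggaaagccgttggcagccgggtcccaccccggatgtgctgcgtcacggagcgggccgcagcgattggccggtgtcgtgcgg
Hsph1: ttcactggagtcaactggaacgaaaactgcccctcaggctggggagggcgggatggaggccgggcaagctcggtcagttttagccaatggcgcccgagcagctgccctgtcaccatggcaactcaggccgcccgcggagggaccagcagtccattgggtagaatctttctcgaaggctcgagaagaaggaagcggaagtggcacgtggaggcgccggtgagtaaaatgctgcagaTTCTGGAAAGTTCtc
Jun: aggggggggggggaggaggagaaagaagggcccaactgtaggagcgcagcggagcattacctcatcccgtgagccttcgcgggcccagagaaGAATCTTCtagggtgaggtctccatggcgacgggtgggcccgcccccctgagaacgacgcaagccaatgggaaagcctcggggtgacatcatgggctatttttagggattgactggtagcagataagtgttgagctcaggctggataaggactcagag
Hspe1: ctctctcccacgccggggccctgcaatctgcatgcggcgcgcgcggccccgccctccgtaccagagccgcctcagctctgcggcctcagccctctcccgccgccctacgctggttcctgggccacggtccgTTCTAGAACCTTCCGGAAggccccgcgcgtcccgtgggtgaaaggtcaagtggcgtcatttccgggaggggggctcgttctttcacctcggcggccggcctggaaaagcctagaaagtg
The short form was found in 7.86% and a longer form in 0.603% of 32851 mouse promoter windows from 250 bases before to 50 bases after the start, of which the windows above show part. In these full windows the short form was present for 12 of the 92 genes called higher at 42 °C that have an entry (13%), for 5 of 90 called lower (5.56%) and for 466 of 6760 tested genes (6.89%). Among the 7 chaperones that rose it was present for Hspa1a, Hspa1b and Hsph1 and not for Dnajb1, Hspa4l, Dnajb4 and Ahsa2. A match describes letters only. The reverse order, TTCNNGAA, was not searched on its own, and 1 promoter window of Dnajb4 holds it (TTCTAGAA). Absence of a match therefore does not mean absence of the element, and it says nothing of HSF1 outside this window.

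At 42 °C 267 of 9544 tested genes changed (2.8%), 135 higher (1.41%) and 132 lower (1.38%), by limma with Benjamini-Hochberg adjustment at 0.05. The median change of all tested genes was 0.02 on the log2 scale. Rises reached further than falls: 28 genes were at least 4-fold higher and 5 at least 4-fold lower. The 3 heated arrays did not overlap the 3 untreated ones for any of the 267, and such separation held for 28.7% of all tested genes. With the beadchip as a block the count was 410. Untreated replicate 1 shared its chip with 42 °C replicates 1 and 3, and untreated replicates 2 and 3 shared the other with 42 °C replicate 2, and within either chip alone 15 and 17 genes were called. Without untreated replicate 1, 2 or 3 the counts were 165, 156 and 148, and without 42 °C replicate 1, 2 or 3 they were 160, 179 and 133. Scaling by the median in place of quantiles moved the median of all genes to -0.13 and the split to 76 higher and 172 lower.

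**Figure D1:**
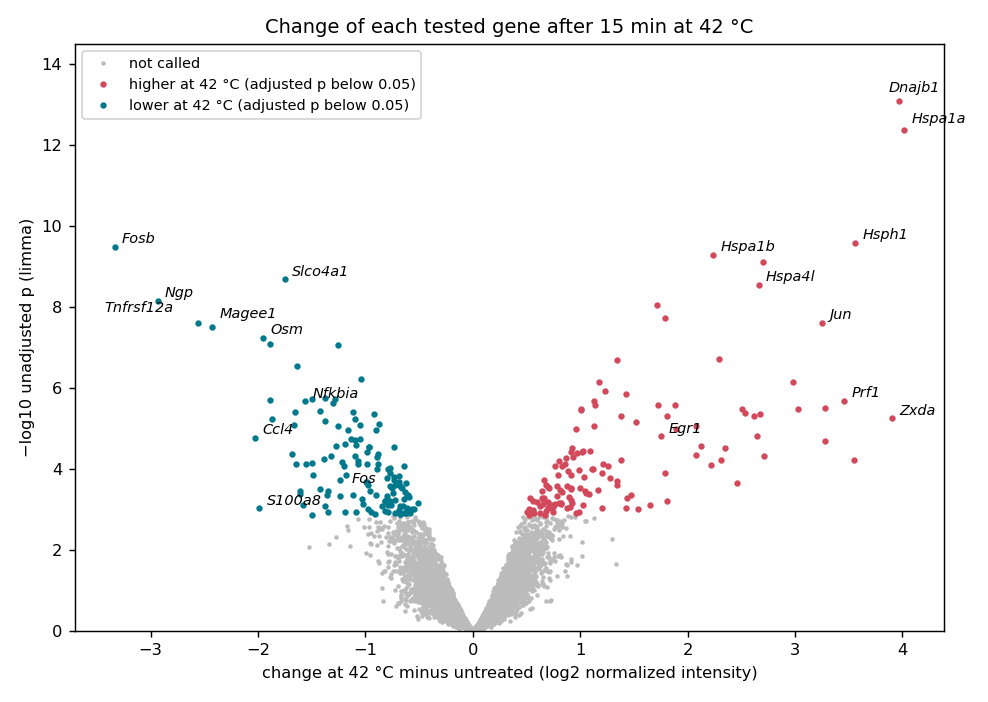
Each point is 1 of the 9544 tested genes, with the change from untreated to 42 °C in log2 normalized intensity on the horizontal axis and the unadjusted p of limma as −log10 on the vertical axis. Red points are the 135 genes called higher and blue points the 132 called lower at an adjusted p below 0.05, and Dnajb1, Hspa1a and Hsph1 stand highest on the right while Fosb stands highest on the left.

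Chaperones formed the clearest group of rises. Of 29 inducible chaperones and cochaperones listed, 27 were on the array, 20 were tested, 7 rose (35% against 1.41% of all genes) and 0 fell, with a median change of 0.35 on the log2 scale. Hspa1a and Hspa1b passed the detection filter only through the 42 °C arrays, so that the filter favoured their counting as rises. With detection required on all 12 arrays, 18 members were tested and 5 rose. Without 42 °C replicate 1, 2 or 3 the number that rose was 7, 5 and 5, and without untreated replicate 1, 2 or 3 it was 6, 5 and 5.

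Dnajb1 had log2 levels of 10.97, 10.78 and 10.95 on the untreated arrays and 14.82, 14.97 and 14.83 on the heated ones. The heated arrays lay close to each other and above every untreated array. The change was 3.97 (95% interval 3.72 to 4.22, 15.7-fold, adjusted p = 7.68e-10 by limma), and it was 3.86 and 4.1 within the 2 chips. Hsph1 went from 9.84, 10.21 and 10.06 to 13.33, 13.96 and 13.51, a change of 3.56 (11.8-fold, limma adjusted p = 7.77e-07), with 42 °C replicate 2 the highest. Both transcripts were already well detected in untreated cells.

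Hspa1a was not: its probe was detected on 0 of 3 untreated arrays (4.47, 4.69 and 4.5) and on all 3 heated ones (8.36, 8.71 and 8.64). The rise was at least 10.5-fold, with a fitted change of 4.02 (limma adjusted p = 2.05e-09) that fell to 1.82 when no background was removed. A second tested probe of Hspa1a rose by 1.27 on the log2 scale, from 4.53 to 5.8. Hspa1b, its near-identical neighbour on the chromosome, was likewise undetected in untreated cells (4.49, 4.29 and 4.3) and stood at 6.79, 6.53 and 6.48 after heating, at least 2.67-fold higher (limma adjusted p = 9.75e-07), with a fitted change of 2.24 and of 0.73 without background removal. Since the 2 genes differ by few bases, how their signal divides between the probes is uncertain.

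Hspa4l encodes a testis-enriched relative of Hsph1. Its levels were 5.84, 6.29 and 6.21 in untreated cells and 8.48, 8.96 and 8.89 after heating, a change of 2.66 (limma adjusted p = 3.4e-06) that was 1.54 without background removal. A dimmer probe of Hspa4l changed by -0.07 (from 5.46 to 5.4), so that the rise rests on 1 of its 2 tested probes. The probe that rose was named through a synonym. The dimmer probe and another, detected on 0 arrays, carry the RefSeq accession of Hspa4l. Smaller rises were those of Dnajb4, another HSP40, by 1.08 (limma adjusted p = 0.022) and of Ahsa2, a relative of the HSP90 activator Ahsa1, by 0.79 (limma adjusted p = 0.025). Both groups were separate for Dnajb4 (6.44 to 6.9 against 7.59 to 8.03) and for Ahsa2 (5.73 to 6.02 against 6.46 to 6.91). Neither call was firm: without untreated replicate 2 or 3 or 42 °C replicate 2 or 3 the adjusted p of Dnajb4 was 0.105, 0.058, 0.101 and 0.088, and that of Ahsa2 was 0.113, 0.059, 0.109 and 0.098, with 0.068 for Ahsa2 without untreated replicate 1. Without background removal the changes were 0.6 and 0.31 (limma adjusted p = 0.0066 and 0.05, the latter just above the threshold).

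The other tested members of the list were not called. Hspa8, the main constitutive HSP70, had 14.87, 14.88 and 14.76 in untreated cells and 15.02, 15.02 and 15.22 after heating, a difference of 0.25 (95% interval -0.05 to 0.55) that did not pass the test. Hspa8 lay near the top of the intensity range, and whether that compressed the difference was not tested. Hsp90aa1, the stress-responsive cytosolic HSP90, differed by 0.6 (0.14 to 1.06, limma adjusted p = 0.171) with groups that did not overlap, and its sister Hsp90ab1 by 0.28. The mitochondrial pair Hspd1 and Hspe1 differed by 0.08 (-0.28 to 0.44) and 0.09 (-0.38 to 0.56), although both carry the longer element in 1 of their promoter windows. It is the same stretch of the chromosome in both, read from opposite strands. Cacybp, which binds ubiquitin ligases and HSP90, and Chordc1, an HSP90 cochaperone, differed by 0.52 and 0.43 without passing the test. Ubb, a polyubiquitin gene, differed by 0.06. Bag3, Dnaja1, Hspb1, Hspb8 and Serpinh1 did not pass the detection filter and were not tested.

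Other folding machines and the regulators themselves showed no calls. Of 12 tested subunits of the cytosolic chaperonin and its partner prefoldin 0 were called, with changes from -0.27 to 0.22, and of 15 other HSP40 genes 0, with changes from -0.45 to 0.35. Hsf1 itself differed by 0.16 (-0.17 to 0.49) and Hsf2 by -0.02, and 0 of 5 tested genes of the HSF list were called. Over all tested genes 2.8% were called, so that 0 calls in such small lists lie near that share and do not set them apart. Of 18 tested members of the unfolded protein response of the endoplasmic reticulum, with a median change of -0.25, 1 fell (5.56%, against 1.38% of all genes) and 0 rose. The call was Herpud1, which fell by 0.56 and was not called with untreated replicate 1 or 3 or a 42 °C replicate left out (limma adjusted p from 0.075 to 0.148). Hspa5, the chaperone BiP that marks that response, differed by -0.57 and was not called.

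**Figure D2:**
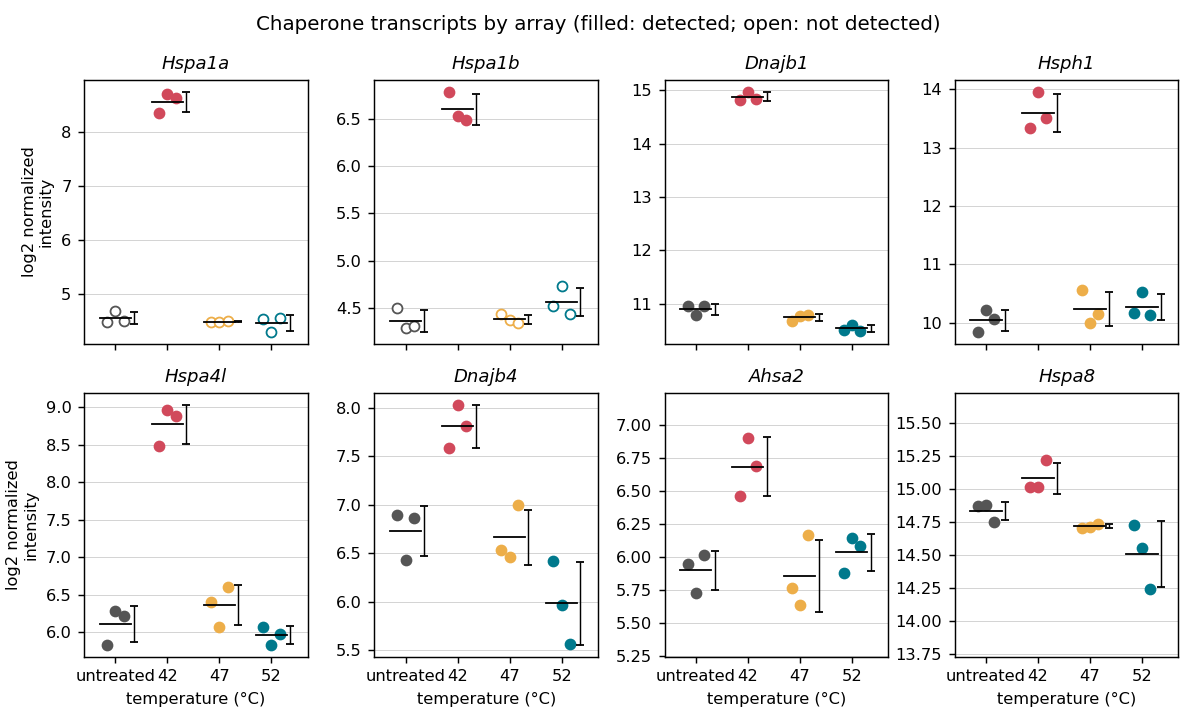
Log2 normalized intensity of 8 chaperone genes on each of the 12 arrays of batch B, by temperature, with 3 arrays a group; filled points were detected and open points were not, lines are means and bars are SD, and each panel has its own axis. The 3 arrays at 42 °C stand above all others for Hspa1a, Hspa1b, Dnajb1, Hsph1, Hspa4l, Dnajb4 and Ahsa2, and the 47 °C and 52 °C arrays lie near the untreated ones for the first 5.

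The chaperones that rose at 42 °C were lower at both higher temperatures. All 7 passed the test of 47 °C against 42 °C, in which 1.37% of all genes were called lower and 1.4% higher, and the test of 52 °C against 42 °C, in which 3.92% were called lower and 4.81% higher. At 47 °C the changes against the same untreated arrays were -0.15 for Dnajb1, 0.19 for Hsph1, -0.07 for Hspa1a and 0.25 for Hspa4l, none of them called, where 8.29% of all genes were, and the tests of 47 °C against 42 °C gave differences of -4.12, -3.37, -4.09 and -2.41 (limma adjusted p = 4.83e-10, 1.07e-06, 1.66e-09 and 7.26e-06). At 52 °C the differences from 42 °C were -4.33, -3.33, -4.11 and -2.81. No array at either higher temperature detected Hspa1a or Hspa1b (0 of 3 each). The comparisons with untreated cells share the untreated arrays. The 7 chaperones were picked by their values on the same 42 °C arrays that these tests reuse. Hspa1a and Hspa1b were tested only because those arrays detected them. That choice favours lower values at 47 °C and 52 °C, so that the 7 calls are not independent of the rises. The median of the list against untreated was -0.06 at 47 °C and -0.12 at 52 °C.

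Of the 135 genes that rose at 42 °C, 57 were lower at 47 °C than at 42 °C (1.37% of all genes), 0 were higher (1.4%) and 78 did not pass, where 2.78% of all genes were called. Of the 132 that fell, 33 stood nearer to untreated at 47 °C, 4 stood further away and 95 did not pass. At 52 °C, where 8.73% of all genes differed from 42 °C, 83 of the risers were lower than at 42 °C and 45 of the fallers nearer to untreated. The choice of genes by their 42 °C values favours a return toward untreated in these counts.

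Immediate early genes split, with 2 rises and 8 falls. Of 40 listed 28 were tested, the median change was -0.44, and 7.14% rose and 28.6% fell, against 1.41% and 1.38% of all genes. Without background removal the list median was -0.16. Jun was detected on 2 of 3 untreated arrays, at 4.88, 5.58 and 5.39, and reached 8.41, 8.79 and 8.41 after heating. The change of 3.25 (95% interval 2.67 to 3.83, limma adjusted p = 1.83e-05) was 3.53 and 3.3 within the chips and 1.6 without background removal. Egr1, a zinc finger factor induced through the ERK pathway, went from 5.41, 5.4 and 5.42 to 6.8, 7.61 and 7.07, a rise of 1.75 (limma adjusted p = 0.0022) that was 0.69 without background removal.

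The AP-1 partners of Jun went the other way. Fosb fell from 8.91, 8.69 and 8.7 to 5.38, 5.64 and 5.27, by 3.34 (95% interval -3.75 to -2.93, limma adjusted p = 7.77e-07), and the fall was 1.74 without background removal. All heated arrays still detected Fosb. Fos fell by 1.2 (limma adjusted p = 0.0071), from 10.88, 10.81 and 10.88 to 9.24, 10.01 and 9.73, so that it remained among the well detected transcripts. Junb and Jund differed by -0.45 and -0.44 and Fosl2 by -0.81, none of which passed the test.

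Further falls included a cytokine and several signalling genes. Osm, the cytokine oncostatin M and a target of STAT5, fell by 1.95 (12.61, 12.94 and 12.94 against 10.6, 11.24 and 10.78, limma adjusted p = 3.65e-05), and its second probe fell by 2.41. Dusp2, a nuclear phosphatase of MAP kinases, fell by 1.89 and by 1.05 at its second probe, and by 0.9 without background removal. Ier3, a stress-responsive survival gene, fell by 1.65, with 42 °C replicate 2 at 11.49 and the other heated arrays at 10.04 and 10.45. The same array was the highest of the heated ones for Csrnp1 (7.58, 9.09 and 8.42 against 9.7 to 9.78) and Zfp36 (7.29, 9.01 and 7.66 against 9.3 to 9.39), a transcription factor and an RNA-destabilizing protein. Their falls of 1.38 and 1.35 just passed (limma adjusted p = 0.036 and 0.045) and did not pass with an untreated replicate or 42 °C replicate 1 or 3 left out (adjusted p from 0.102 to 0.112 and from 0.119 to 0.189). On the chip of that array alone the falls were 0.63 and 0.34. Dusp4 fell by 0.76 and lost its call whichever of the 6 arrays was left out (limma adjusted p from 0.081 to 0.127). Over the list, 5 falls passed with an untreated replicate or 42 °C replicate 1 or 3 left out, and 7 without 42 °C replicate 2, while both rises passed each time.

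**Figure D3:**
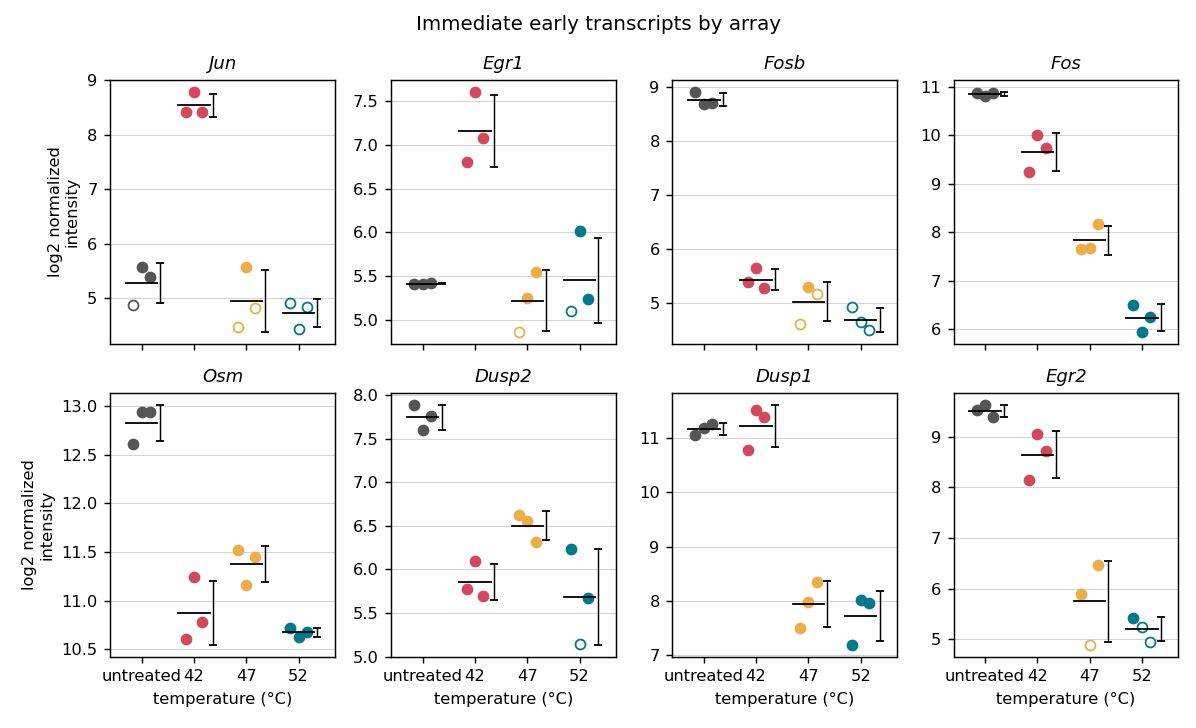
Log2 normalized intensity of 8 immediate early genes on the 12 arrays of batch B, by temperature, drawn as in the plot of chaperones. Jun and Egr1 are highest at 42 °C, Fosb and Osm are low at all 3 temperatures, and Dusp1 and Egr2 are low at 47 °C and 52 °C but not, or less, at 42 °C.

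Several early transcripts that were low at the higher temperatures stood higher at 42 °C. Dusp1, a phosphatase that switches off p38 and JNK, had 11.05, 11.18 and 11.26 in untreated cells and 10.78, 11.51 and 11.38 at 42 °C, a difference of 0.06 (95% interval -0.51 to 0.63), against -3.22 at 47 °C and -3.44 at 52 °C. The difference between 47 °C and 42 °C was -3.28 (limma adjusted p = 1.29e-05). Egr2 differed by -0.87 at 42 °C without passing and by -3.77 at 47 °C, with a difference between the temperatures of -2.9 (limma adjusted p = 4.04e-04). Nfkbiz, a nuclear cofactor of NF-kB, differed by 0.26 against -1.6, and Fos by -1.2 against -3.02, with differences of -1.86 and -1.82 between the temperatures (limma adjusted p = 0.002 and 4.08e-04). For Fosb and Osm, by contrast, the 47 °C arrays did not differ from the 42 °C ones beyond the test (-0.41, 95% interval -0.82 to 0.003, and 0.5, 0.13 to 0.88).

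Targets of NF-kB and chemokines were partly lower. Of 13 tested NF-kB targets 3 fell (23.1%, against 1.38% of all genes) and 0 rose, with a median of -0.2. Nfkbia, the inhibitor that closes the NF-kB feedback loop, fell by 1.56 (7.91, 7.9 and 8.21 against 6.13, 6.63 and 6.57, limma adjusted p = 6.37e-04) and by 1.26 at its second probe, with a fall of 0.85 without background removal. Ccl4 and Ccl3, the neighbouring macrophage inflammatory chemokines, fell by 2.03 and 1.58 (limma adjusted p = 0.0024 and 0.035), and the second probe of Ccl4 fell by 1.86. The heated arrays spread widely for Ccl4 (6.99, 8.59 and 7.82), and Ccl3 lost its call whichever of the 6 arrays was left out (limma adjusted p from 0.075 to 0.134). Tnf and Icam1 differed by -0.5 and -0.2 and were not called.

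Bcl2a1 genes, which encode an antiapoptotic BCL2 relative, fell together at 42 °C. Bcl2a1d fell from 8.11, 7.98 and 8.14 to 6.13, 6.07 and 6.42 and Bcl2a1b from 7.84, 7.67 and 7.56 to 5.97, 6.49 and 6.11, with changes of -1.87 and -1.5 (limma adjusted p = 0.001 and 0.0066). These copies are nearly identical, so that the probes may read the same transcripts. At 47 °C they were 0.74 and 0.77 above untreated without passing, and the differences of 2.61 and 2.27 between 47 °C and 42 °C passed (limma adjusted p = 8.51e-05 and 4.04e-04). Mcl1 and Bcl2l1, other survival members of the family, differed by 0.04 and -0.39, and of 12 tested members 2 fell (16.7%, against 1.38% of all genes), both of them these copies, and 0 rose, with a median of -0.03. Without background removal Bcl2a1d and Bcl2a1b fell by 0.99 and 0.74.

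Some transcripts of neutrophil granules fell at 42 °C. The list of 23 genes was drawn up after results were seen, and 13 were tested, of which 5 fell (38.5%, against 1.38% of all genes) and 0 rose, with a median of -0.41. Ngp, neutrophilic granule protein, had 9.54, 9.56 and 9.5 in untreated cells and 6.93, 6.13 and 6.73 at 42 °C, a change of -2.94 (limma adjusted p = 7.37e-06) that was -2.71 and -3.4 within the chips. Ltf, lactoferrin, fell by 1.67 (7.24, 7.61 and 7.4 against 5.87, 5.69 and 5.7), and Stfa2, a stefin, by 1.05 (limma adjusted p = 0.0014 for both). Without background removal the changes of Ngp, Ltf and Stfa2 were -1.95, -0.73 and -0.36, each still called. S100a8 and S100a9, whose proteins pair as calprotectin, stood at 10.98 to 11.06 and 10.88 to 10.96 in untreated cells and at 8.76 to 9.2 and 9.21 to 9.54 at 42 °C. Their changes of -1.99 and -1.49 had adjusted p of 0.039 and 0.049 by limma, in a fit that shares the spread with the 52 °C arrays, where S100a8 ran from 8.98 to 11.4, and neither passed whichever of the 6 arrays was left out (adjusted p from 0.094 to 0.146 and from 0.115 to 0.173).

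The summed linear level of the 13 genes was 9610 to 10397 in untreated cells, 5857 to 6016 at 42 °C, 13934 to 16934 at 47 °C and 6610 to 10606 at 52 °C. Camp, Chil3, Elane and Retnlg, further genes of the neutrophil lineage, were detected on 0 of 12 arrays. The primary granule genes Mpo and Ctsg and the granulocyte transcription factor gene Cebpe differed by 0.11, -0.05 and 0.09 and were not called. Between 47 °C and 42 °C Ngp differed by 3.34, Ltf by 3.01 and Stfa2 by 2.29 (limma adjusted p = 2.01e-06, 8.45e-06 and 2.01e-06). The part of differing cell composition in these values was not tested.

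**Figure D4:**
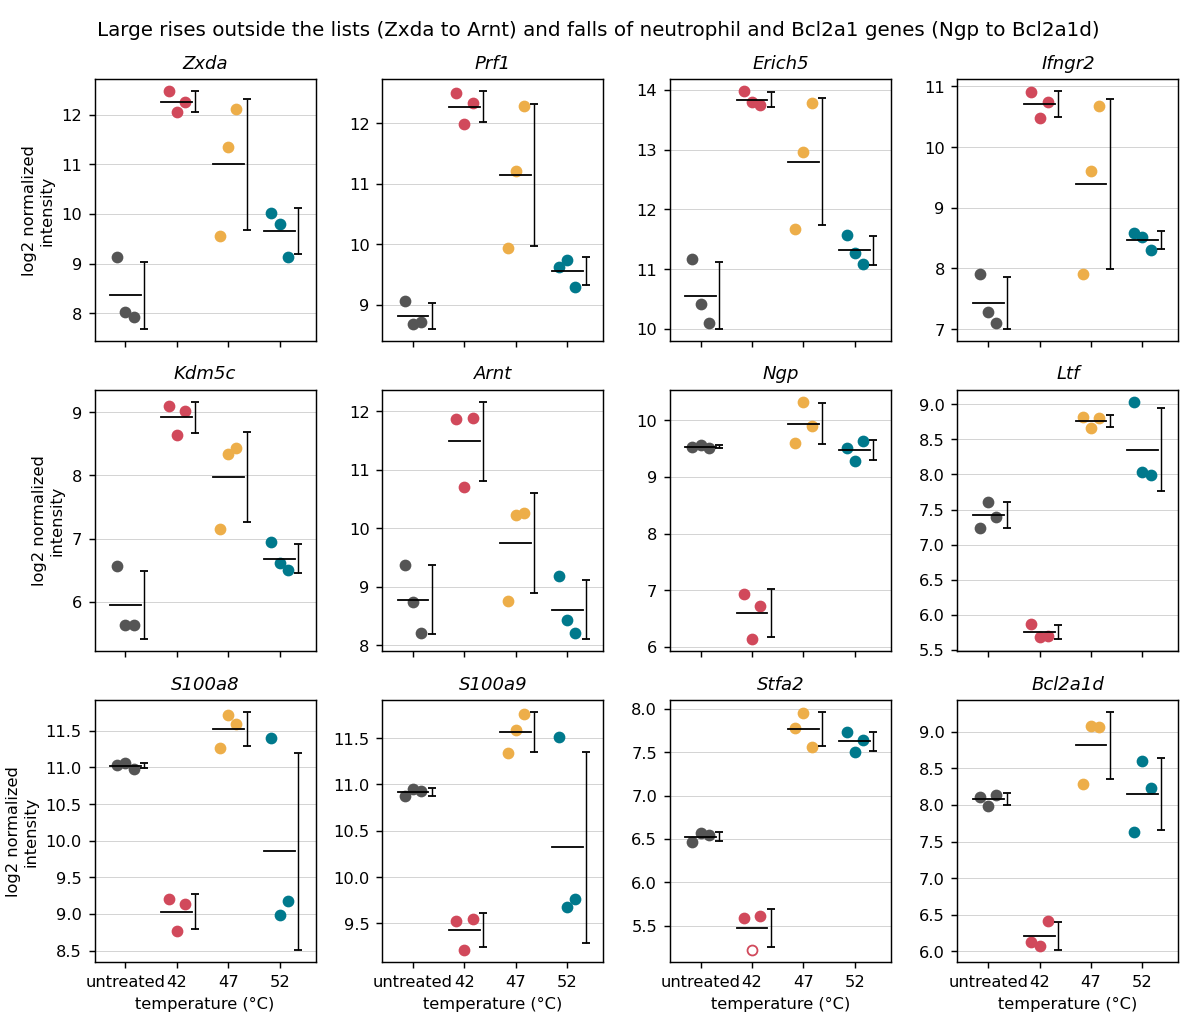
Log2 normalized intensity on the 12 arrays of batch B of 6 genes with large rises outside the lists (Zxda, Prf1, Erich5, Ifngr2, Kdm5c and Arnt), 5 neutrophil granule genes and Bcl2a1d, drawn as in the plot of chaperones. The first 6 are highest at 42 °C and spread widely at 47 °C, and the other 6 are lowest at 42 °C or, for S100a8 and S100a9, low on 2 arrays at 52 °C as well.

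Outside the lists, the 12 largest rises held 8 further genes. Zxda, which RefSeq lists as a transcribed pseudogene, had 9.14, 8.03 and 7.92 in untreated cells and 12.47, 12.05 and 12.26 at 42 °C, a change of 3.9 (95% interval 2.77 to 5.03, limma adjusted p = 0.001). Prf1, perforin, went from 9.07, 8.68 and 8.71 to 12.5, 11.99 and 12.33, a change of 3.45 at 1 of its 2 probes, while the other, of the same transcript accession, was detected on 0 of 12 arrays. Erich5 and Kdm5c, a glutamate-rich protein and an X-linked histone demethylase, changed by 3.28 and 2.98. Here too the other probes, 1 for Erich5 and 3 for Kdm5c, were detected on 0 of 12 arrays, and the Kdm5c probe that changed was named through a synonym, while the other 3 carry its RefSeq accession. In each of these 4 genes untreated replicate 1 was the highest of its group and 47 °C replicate 1 the lowest of its own. For Zxda the latter stood at 9.55, against 11.34 and 12.12 on the other 47 °C arrays. The same order held for Ifngr2 and Arnt, described next.

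Other rises also rest on 1 probe of a gene. Ifngr2, a chain of the interferon gamma receptor, rose by 3.27 at its brightest probe (7.92, 7.28 and 7.11 against 10.9, 10.48 and 10.75), and its other 2 tested probes changed by 0.02 and 0.3. Arnt, the partner of the hypoxia and dioxin receptors, rose by 2.71 at 1 probe and changed by -0.15 to 0.12 at 3 others. The Arnt probe that rose was named through its symbol, while those 3 carry the RefSeq accession of Arnt. C430049B03Rik, a noncoding RNA gene, rose by 2.7 with tight groups (5.64, 5.68 and 5.58 against 8.01, 8.59 and 8.41) and changed by 0.3 at a second probe, and it stood 3.11 lower at 47 °C than at 42 °C (limma adjusted p = 4.56e-07). Trim43b, a ubiquitin ligase gene, was detected on 0 of 3 untreated arrays and rose at least 10.6-fold (limma adjusted p = 0.0058). Without background removal the rises of Kdm5c, C430049B03Rik and Trim43b were 1.7, 1.37 and 1.7.

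Against 42 °C the 47 °C differences of Zxda, Prf1, Erich5, Ifngr2, Kdm5c and Arnt ran from -1.74 to -0.94 and none passed the test. The 52 °C differences of these 6 genes ran from -2.88 to -2.24 and all passed (limma adjusted p from 0.0015 to 0.015).

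Among the 12 largest falls, Tnfrsf12a, the receptor of the cytokine TWEAK, fell by 2.56 (8.9, 8.67 and 8.62 against 5.98, 6.54 and 6, limma adjusted p = 1.83e-05). Slco4a1, an organic anion transporter, had the tightest groups of these 12 after heating, at 9.12, 9.23 and 9.2 against 10.93, 10.81 and 11.05, and fell by 1.75 (limma adjusted p = 2.84e-06). It stood at the same level at 47 °C, where the difference from 42 °C was 0.02. Magee1, a MAGE family gene, and Emp1, an epithelial membrane protein gene, were detected on all untreated and on 0 of 3 heated arrays and were at least 3.78-fold and 2.49-fold lower. Without background removal Tnfrsf12a, Magee1 and Emp1 fell by 1.48, 0.85 and 0.59. Slc30a1, the zinc exporter and a target of the metal factor MTF1, fell by 1.68 (9.03, 8.7 and 9.13 against 6.82, 7.67 and 7.32, limma adjusted p = 0.0046). The metallothioneins Mt1 and Mt2, also targets of that factor, differed by -0.09 and -0.04.

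Most of the housekeeping lists had no called member. Calls were 0 of 42 tested ribosomal protein genes, with changes from -0.21 to 0.51, and 0 of 26 genes of oxidative phosphorylation. They were also 0 of 29 of the proteasome and ubiquitin system, 0 of 13 of glycolysis, 0 of 24 of the G1/S set and 0 of 17 antioxidant targets of NRF2. Of all tested genes 2.8% were called, so that 0 calls in lists of these sizes lie near that share. Few members of the remaining lists passed. Srsf6 and Srsf5, serine-arginine splicing factors, fell by 0.92 and 0.67 (limma adjusted p = 9.13e-04 and 0.017) among 19 tested (10.5%, against 1.38% of all genes). Srsf5 did not pass with an untreated replicate or 42 °C replicate 1 or 2 left out (limma adjusted p from 0.051 to 0.083). Insig1, which holds back sterol synthesis and is itself induced when sterols are low, fell by 1.1. The 18 tested cholesterol genes had a median of -0.42 with this 1 call (5.56%, against 1.38% of all genes). H1f2, a linker histone, fell by 1.28 and by 1.57 at its second probe. Polr1b, a subunit of RNA polymerase I, fell by 1.14 and by 0.57 without background removal. Osm was the only called member of 12 tested in the list of IL-3 and STAT5 targets (8.33%, against 1.38% of all genes called lower). Calls were 0 of 11 tested myeloid progenitor, 0 of 8 mast cell and basophil and 0 of 5 erythroid and megakaryocyte markers. They were 0 of 2 pro-B and 0 of 1 macrophage markers. With 2.8% of all genes called, these marker counts lie near the share of all genes.

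Nupr1, a stress-induced chromatin protein, rose by 1.04 (7.23, 7.4 and 7.48 against 8.06, 8.76 and 8.39, limma adjusted p = 0.011). It was the only called member of 14 tested in the integrated stress list (7.14%, against 1.41% of all genes called higher). It missed the threshold without untreated replicate 1 or 42 °C replicate 2 or 3 (limma adjusted p = 0.056, 0.052 and 0.053). Its change was 0.68 without background removal. Among noncoding RNA, the host transcript of the miR-17 cluster, Mir17hg, fell by 1.43 (limma adjusted p = 0.019), and Rpph1, the RNA of ribonuclease P, was detected on 0 of 3 untreated arrays and was at least 1.63-fold higher, a call that without background removal missed the threshold (0.38, limma adjusted p = 0.054). Mir17hg lost its call with an untreated replicate or 42 °C replicate 1 or 3 left out (adjusted p from 0.055 to 0.09). Single called members with small changes were Prc1 of the G2/M list (0.5), Sesn1 of the p53 list (-0.68), Cfl1 of the actin list (-0.69) and Nkg7 of the T and NK cell list (-1.26, and -0.53 without background removal). They made up 5.26%, 8.33%, 7.69% and 25% of the tested members, against 1.41% of all genes called higher and 1.38% lower. Among these genes Nkg7 passed without each array in turn. Prc1 and Sesn1 failed whichever array was left out (limma adjusted p from 0.101 to 0.157 and from 0.07 to 0.17). Cfl1 failed without untreated replicate 2 or 3 or 42 °C replicate 1 or 3 (limma adjusted p from 0.073 to 0.087).

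**Figure D5:**
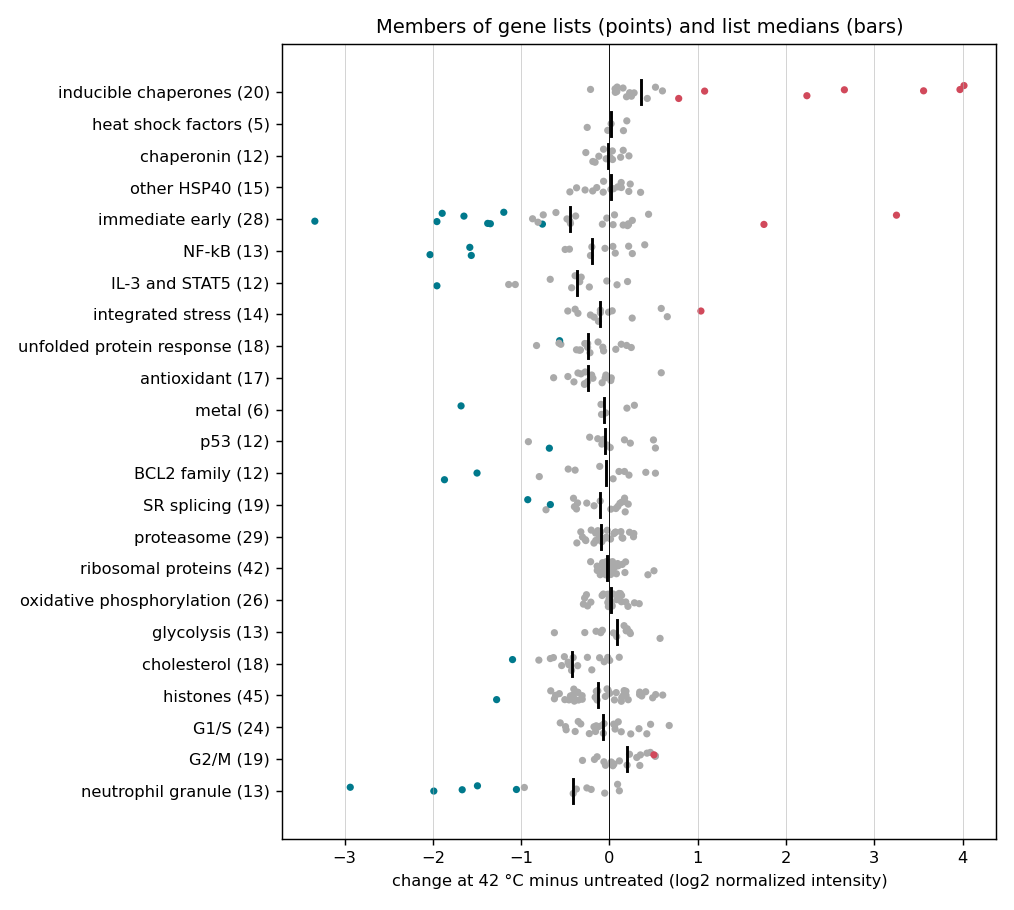
Change from untreated to 42 °C in log2 normalized intensity (horizontal axis) of each tested member of 23 gene lists (rows, with the number tested); red points were called higher, blue points lower and grey points not called, and the bar is the list median. Inducible chaperones reach furthest to the right and immediate early genes furthest to the left, while ribosomal protein and oxidative phosphorylation genes gather around 0.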

How the data were processed

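The authors deposited average bead intensities for every probe and array of batch B, with no normalization or background subtraction per the file headers, and beside each intensity a deposited detection p-value. Arrays were matched to samples through the chip and position that the labels give. The log2 table deposited by the authors was matched to these intensities and served as an alternative only; how it was normalized is not given in the sources used here. In limma 3.58.1 (R 4.3.3, with data.table in version 1.17.8), the detection p-values set a normal-exponential background model (offset 16), followed by quantile normalization over 12 arrays and log2, so that a shift common to all transcripts is not seen. Probes with a detection p below 0.01 on at least 3 arrays (13773) were kept, and the brightest probe of each gene gave 9544 genes. Gene names came from the deposited accession (29370 probes), Entrez identifier (2975), symbol (2214) or synonym (2371) through RefSeq, GRCm38.p6, and for 8351 probes from the file. All 4 groups of batch B shared a group-means model, with two-sided moderated tests and Benjamini-Hochberg adjustment over all tested genes at 0.05. The precision is limited by 3 arrays a group. Intervals are 95%. Where all 3 arrays of a group missed a gene, its fold is a bound: each such array was set to its dimmest detected signal, or to the gene's own value if higher.

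The text names Hspa1a, Dnajb1, Hsph1, Jun and Fosb, the 12 largest rises and 12 largest falls among called, named genes whose groups do not overlap, called members of the gene lists and, per list, members with values for comparison. The genes compared, the 32 lists and the list added later were chosen with earlier results of these data known. No list was tested as a set. Promoters are RefSeq's. Alternatives changed the background removal, its offset, the scaling, the arrays normalized, the detection filter, the probes per gene, the weights, the prior, the blocks (chip or replicate number), the arrays included (chips and single arrays) and the table used.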

Additional observations from a re-analysis of the deposited data

How the results depend on the processing

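Of 65 called genes followed through the alternatives, 6 stayed called under each one that measured them. Over all genes followed, called or not, 0 of 3155 values took the opposite sign where the main result or the alternative was called. Changes of sign without a call were not counted. The values of dim genes depended most on the background. The count of 267 called genes (135 higher, 132 lower) became 462 (229, 233) with only the 6 arrays, 1297 (646, 651) with array weights, 410 (222 higher) with the beadchip as a block, 479 (247, 232) without the 52 °C arrays and 464 (210, 254) in the authors' deposited log2 table. It became 15 (11, 4) and 17 (9, 8) within the beadchips of untreated replicate 1 and of untreated replicates 2 and 3, which hold fewer arrays. Median scaling gave 76 higher. Leaving out 1 array gave 133 to 179 called, 66 to 90 higher and 67 to 95 lower, and leaving out untreated replicate 1 and 42 °C replicate 2 together, chosen after seeing the data, gave 128 (62, 66). For the other changes the cause was not tested.

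With the replicate block 223 genes were called (115, 108), 211 of them among the 267. The labels do not say whether equal numbers pair the samples, and 3 arrays a group cannot settle it. Deviations of same-numbered arrays correlated at 0.03, 0.14 and -0.1. The 42 °C replicates 1 and 2, not 3, correlated best with their own number.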

Other observations

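A few called genes outside the lists were chosen after their values were seen. Zfand2a, a zinc finger gene that arsenite and heat induce and whose protein acts at the proteasome, had 8.78, 9.3 and 9.12 in untreated cells and 9.61, 10.62 and 10.12 at 42 °C. It rose by 1.05 (limma adjusted p = 0.021), and it changed by -0.89 at 47 °C, with a difference between the temperatures of -1.94 (limma adjusted p = 3.95e-04). Without untreated replicate 1 or 3 or 42 °C replicate 2 or 3 its adjusted p was 0.095, 0.071, 0.073 and 0.086. Txnip, the inhibitor of thioredoxin, rose by 1.28 (10.28, 10.37 and 10.37 against 11.33, 11.88 and 11.65, limma adjusted p = 0.012), and without untreated replicate 1 or 42 °C replicate 2 or 3 its adjusted p was 0.053, 0.062 and 0.057. Slc5a5, the iodide transporter, rose by 2.29 with tight groups (6.36, 6.5 and 6.26 against 8.64, 8.66 and 8.68, limma adjusted p = 1.02e-04) and was 3.07 lower at 47 °C than at 42 °C (limma adjusted p = 6.13e-06), with a rise of 1.35 without background removal.

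Uqcrb, a subunit of respiratory complex III, rose by 1.35 (7.78, 7.76 and 7.93 against 9.16, 9.14 and 9.21, limma adjusted p = 1.03e-04). Cell surface and kinase genes among the falls were Havcr2, an inhibitory receptor, with a change of -1.66, Clec4e, a lectin receptor, with -1.43, and Plk3, a stress-responsive kinase of the polo family, with -1.38 (limma adjusted p = 8.69e-04, 8.2e-04 and 0.0012). Plk3 had 9.92, 10.14 and 9.94 in untreated cells and 8.25, 9.01 and 8.6 at 42 °C.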
